A study of Mus musculus with 6 samples.

Results

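The 8 genes described here are 7 genes for enzymes of fatty acid beta-oxidation, Cpt1a, Cpt2, Acadm, Acadl, Acadvl, Hadha and Hadhb, and the gene for their transcriptional regulator Ppara. They were chosen by symbol, and all 8 were found among the 24015 gene symbols counted in RNA-Seq libraries of mouse sciatic nerve. All 8 also passed the filter on low counts, which left 11371 genes for testing. Rnf40 is a subunit of the E3 ligase that attaches ubiquitin to histone H2B, and the study asked what its loss does to Schwann cells, the cells that form myelin in peripheral nerve. Control mice (ctrl) were Rnf40 fl/fl and carried no Cre transgene. Rnf40ΔSC mice (cko) combined the same Rnf40 fl/fl alleles with Dhh::Cre, which is active in the Schwann cell lineage and removes exons 3 and 4 of Rnf40. Cells of the nerve in which Dhh::Cre is not active keep the gene in both groups. Each group had 3 libraries, and each library was made from the total RNA of a pool of 3 sciatic nerves taken on postnatal day 14 (P14). The labels give the strain of all mice as mixed 129SvJ/C57Bl/6J, whereas the methods name C3H in place of 129SvJ.

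Long-chain fatty acids enter mitochondria through the carnitine shuttle, in which Cpt1a of the outer membrane joins the acyl chain to carnitine and Cpt2 of the inner membrane returns it to coenzyme A. Acyl-CoA dehydrogenases then start each round of oxidation, Acadvl on very long, Acadl on long and Acadm on medium chains, and the trifunctional protein of the subunits Hadha and Hadhb completes the round for long chains. Ppara is a nuclear receptor that binds fatty acids and activates many of these genes, and malonyl-CoA, an intermediate of fatty acid synthesis, inhibits Cpt1 enzymes.

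Control replicates 1, 2 and 3 held 1317167, 1992622 and 2468765 counted reads, and the Rnf40ΔSC replicates in the same order 2184268, 1459387 and 2186710. Levels are given in CPM, the count relative to a TMM-scaled library size, and 1 read stood for 0.414 to 0.823 CPM. The 8 genes together took 0.0418%, 0.0457% and 0.0467% of all counts in control and 0.0520%, 0.0505% and 0.0632% in Rnf40ΔSC libraries, a share that was higher in every Rnf40ΔSC library. Such a share also depends on the counts of all other genes. The summed level of 7 genes of myelinating Schwann cells was 137860, 157827 and 149400 CPM in control libraries. In Rnf40ΔSC libraries these 7 genes had 38102.5, 35923.5 and 36755.8 CPM, and their part in the higher share was not tested. After TMM scaling the summed level of the 8 genes was 454, 514 and 515 CPM in control libraries. It was 487, 461 and 572 CPM in Rnf40ΔSC libraries, so that the genotypes overlapped in the sum. Rnf40 itself had 67.5, 65.5 and 73.6 CPM in control and 46.8, 46.9 and 48.8 CPM in Rnf40ΔSC libraries. All Rnf40ΔSC libraries lay below all control libraries, as the labels have it. The log2 fold change of Rnf40 was -0.54 (SE 0.14), with an adjusted p of 0.00242 in edgeR (quasi-likelihood test, p adjusted after Benjamini and Hochberg over all genes tested), the test behind every adjusted p given here unless DESeq2 is named. It was -0.27 under scaling by total counts (adjusted p = 0.1196, edgeR), and the range of its adjusted p over all settings of edgeR and DESeq2 was 0.00235 to 0.610. The count covers the whole gene, so that reads from exons outside the floxed part and from cells without Cre remain in it. The p-values measure the spread between pools of nerves.

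The libraries differed in markers of neighbouring tissues. The summed level of 12 skeletal muscle genes was 4580.4, 3484 and 2577 CPM in control replicates 1, 2 and 3 and 94.5, 229 and 3153 CPM in Rnf40ΔSC replicates 1, 2 and 3. Muscle RNA was thus low in Rnf40ΔSC replicates 1 and 2 and within the range of the controls in Rnf40ΔSC replicate 3, which also stood apart on the second principal component (20.4, with the other libraries between -10.5 and 0.29). Over all libraries together the most abundant muscle gene was Myh4, although Acta1 had more reads in Rnf40ΔSC replicates 2 and 3. Myh4 had 1711, 1657 and 1571 reads in control and 58, 46 and 1473 reads in Rnf40ΔSC libraries. No muscle gene was at 0 in any library, and 0 of the 12 passed edgeR's test, 0 at an unadjusted p of at most 0.05 and 0 with DESeq2. The summed level of 10 adipocyte genes was 497, 365 and 585 CPM in control and 265, 280.0 and 281 CPM in Rnf40ΔSC libraries. All Rnf40ΔSC libraries lay below all control libraries, and 5 of the 8 adipocyte genes tested fell, beside 16.2% of all genes tested. Cfd was the most abundant over all libraries together, and Ucp1 and Cidea had 0 reads in at least 1 library. Because the fat markers separate the genotypes, fat content and genotype cannot be told apart in these libraries.

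Markers of the cells of the nerve were abundant in every library. The summed level of 6 Schwann cell genes was 3108, 3620 and 3334 CPM in control and 2074, 2078 and 1879 CPM in Rnf40ΔSC libraries, with Gfra3 at 0 in Rnf40ΔSC replicate 2. All 6 fell, as did all 7 genes of myelinating Schwann cells. Of the markers tested for other cell types, 6 of 8 macrophage, 6 of 8 endothelial, 6 of 7 fibroblast, 4 of 5 perineurial and 4 of 6 pericyte and smooth muscle genes fell, beside 16.2% of all genes tested. In bulk RNA of a nerve, fewer cells of a type and less RNA per cell cannot be told apart, and which cells gave the reads of the oxidation genes was not tested.

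The 3 genes of the 8 that passed the test moved in different directions. Cpt1a rose in Rnf40ΔSC nerves, Cpt2 and Acadm fell, and Acadl, Acadvl, Hadha, Hadhb and Ppara did not pass. The 2 of 8 that were lower stand beside 16.2% of all genes tested, and the 1 of 8 that was higher beside 15.4%. The study set further limits (log2 fold change of 0.8 or more in either direction, base mean of 20 or more), and these were passed by 5.05% of all genes as lower and 3.73% as higher. Of the 8 genes, 0 passed these limits with edgeR, 0 passed them when the unadjusted p replaced the adjusted p, and 0 passed them with DESeq2. The median log2 fold change of the 8 genes was -0.10, and that of all genes tested 0.00. Scaling by total counts in place of TMM shifted the median of all genes by 0.27 and the share of lower genes among those called from 51.2% to 18.9%. The totals include the reads of the 7 genes of myelinating Schwann cells, whose part in the shift was not tested. Subtracting that shift from the log2 fold changes under total-count scaling gave 0.63 for Cpt1a, -0.73 for Cpt2 and -0.54 for Acadm. This step largely undoes the change of scaling, so these values restate the TMM fit.

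**Figure D1:**
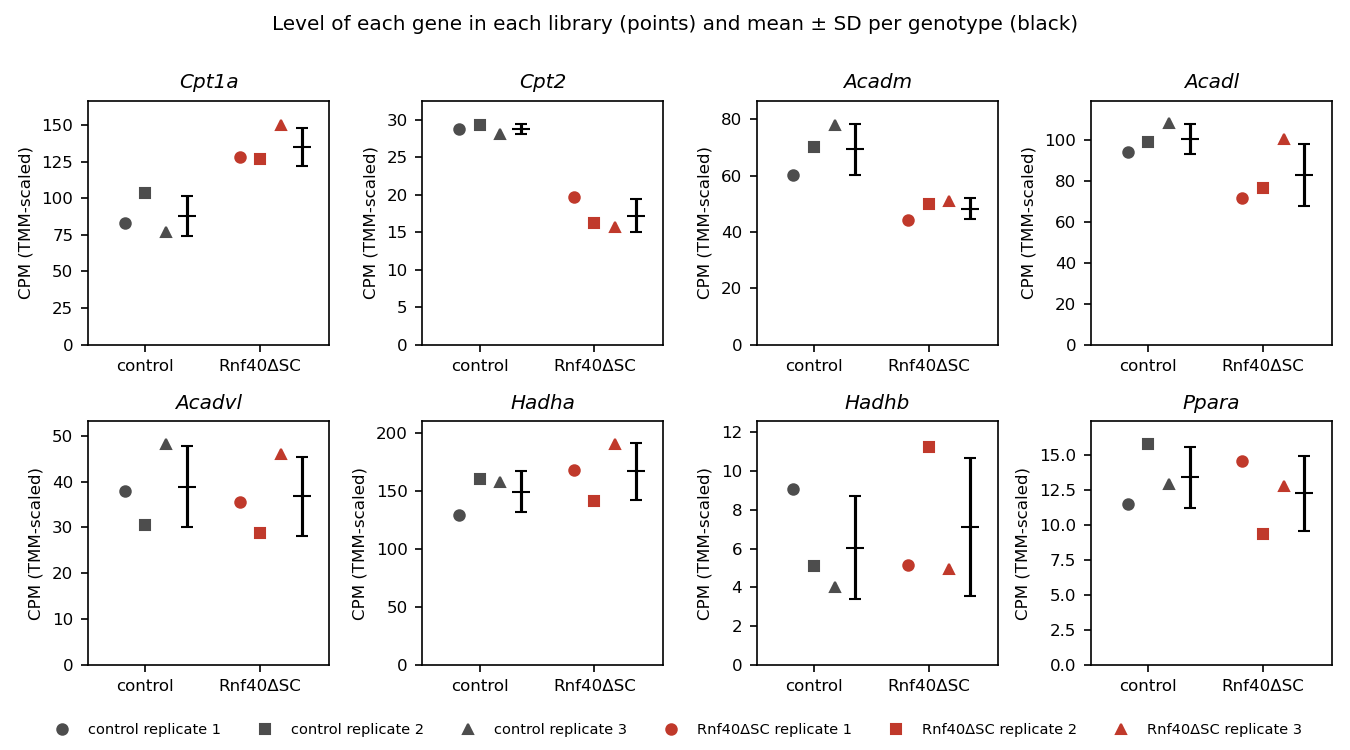
Each panel plots 1 gene, with CPM after TMM scaling on the vertical axis, 1 point per library (circle, square and triangle for replicates 1, 2 and 3) and the mean ± SD of 3 libraries per genotype in black. The genotypes are separate for Cpt1a, Cpt2 and Acadm and overlap for the other 5 genes.

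Cpt1a (chr19:3323301-3385732 of mm9, plus strand), the enzyme at the entry of the shuttle, had 101, 183 and 173 reads in control and 298, 203 and 363 reads in Rnf40ΔSC libraries. This corresponded to 83.2, 103 and 77.2 CPM in control and 128, 127 and 150 CPM in Rnf40ΔSC libraries. Every Rnf40ΔSC library was above every control library, with the highest level in Rnf40ΔSC replicate 3. The mean rose from 87.9 ± 13.7 to 135 ± 13.2 CPM (SD, n = 3 libraries each), or 1.54-fold. The log2 fold change was 0.62 (SE 0.12, adjusted p = 6.97e-05, edgeR), and leaving out single libraries gave values from 0.52 to 0.76. With the level of the muscle markers as a second term it was 0.78 (adjusted p = 2.35e-05, edgeR). With the level of the fat markers as a second term it was 0.17 (adjusted p = 0.792, edgeR), the highest p of a range that began at 2.19e-07 over all settings. In that fit Rnf40 itself was at -0.35 (adjusted p = 0.610, edgeR), and 449 genes passed as lower and 181 as higher in place of 1841 and 1756.

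Cpt2 (chr4:107576586-107596215, minus strand), the partner at the inner membrane, had 35, 52 and 63 reads in control and 46, 26 and 38 reads in Rnf40ΔSC libraries. Scaled to library size, it had 28.8, 29.4 and 28.1 CPM in control and 19.7, 16.2 and 15.7 CPM in Rnf40ΔSC libraries. The control libraries were nearly alike, and every Rnf40ΔSC library lay below them. The mean fell from 28.8 ± 0.632 to 17.2 ± 2.19 CPM (SD, n = 3 each), and the fitted level was 1.66-fold lower. The log2 fold change was -0.73 (SE 0.21, adjusted p = 0.00630, edgeR) and kept its side of the threshold without any single library. It was -0.46 under total-count scaling (adjusted p = 0.0725, edgeR) and -0.84 with the fat term (adjusted p = 0.323, edgeR), in a range of adjusted p from 0.00623 to 0.323 over all settings.

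The ratio of Cpt1a to Cpt2 reads within each library, which does not depend on scaling, was 2.89, 3.52 and 2.75 in control and 6.48, 7.81 and 9.55 in Rnf40ΔSC libraries, 2.61-fold higher in the mean. The genotypes did not overlap in this ratio, which was formed after the values of both genes had been seen and was not tested. It restates the difference between the genes and does not tell which of them moved.

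The sequences before the starts of the 3 genes that changed are shown for comparison of their motifs. They are the 250 bases upstream of each start in RefSeq GRCm38.p6, on the strand of the gene, at chr19:3323051-3323300 (Cpt1a), chr4:107923590-107923839 (Cpt2) and chr3:153944644-153944893 (Acadm). Capitals mark every match, on either strand, to a motif searched.
Cpt1a: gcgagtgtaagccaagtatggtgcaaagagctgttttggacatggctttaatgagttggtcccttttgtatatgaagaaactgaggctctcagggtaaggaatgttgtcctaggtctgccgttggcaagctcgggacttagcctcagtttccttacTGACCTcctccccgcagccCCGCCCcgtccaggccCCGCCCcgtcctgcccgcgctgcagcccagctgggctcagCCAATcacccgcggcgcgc
Cpt2: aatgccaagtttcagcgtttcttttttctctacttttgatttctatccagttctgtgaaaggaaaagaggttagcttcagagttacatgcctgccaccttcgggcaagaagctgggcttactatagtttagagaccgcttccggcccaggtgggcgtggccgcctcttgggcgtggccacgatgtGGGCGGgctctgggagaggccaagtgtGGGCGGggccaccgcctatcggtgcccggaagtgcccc
Acadm: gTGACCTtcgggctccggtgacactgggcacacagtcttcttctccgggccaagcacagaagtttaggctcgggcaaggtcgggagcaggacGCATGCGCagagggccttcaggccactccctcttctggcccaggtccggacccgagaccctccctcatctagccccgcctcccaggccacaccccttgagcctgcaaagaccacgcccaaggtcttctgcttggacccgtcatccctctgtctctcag
The search covered 300 bases of 32851 promoters, 250 before and 50 after each start, and all 8 genes had an entry. The nuclear receptor site AGGTCA, present in 16.3% of all promoters, lay at -94 in Cpt1a, at -249 in Acadm and at -87 in Acadvl and was not found in Cpt2. Its direct repeat AGGTCANAGGTCA (0.0396% of promoters) and its extended form TCAAGGTCA (0.423%), which both contain AGGTCA, were in the window of none of the 8 genes, nor was the E-box CACGTG (7.15%). The NRF1 core GCATGCGC (2.71%) was found at -158 in Acadm and in Ppara, and the EGR site GCGTGGGCG (0.612%) in Hadhb. The GC box GGGCGG (35.7%) was found in all but Acadm and Acadvl, and CCAAT (37.4%) in Cpt1a at -19. Cpt1a and Acadm shared AGGTCA, and Cpt2 and Acadm shared none of these motifs. Only exact matches within the 300 bases were sought, so that variant or more distant sites would be missed. Whether any motif relates to the direction of change was not tested.

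Among the other genes of the carnitine shuttle, 2 of the 4 tested fell, beside 16.2% of all genes tested, and the median log2 fold change of the list was -0.36. Crat, the carnitine acetyltransferase, fell from 103 to 64.6 CPM in the mean, with a log2 fold change of -0.65 (SE 0.13, adjusted p = 0.000108, edgeR). With the fat term Crat was at -0.31 and lost its call (adjusted p = 0.625, edgeR). Cpt1c, the form of Cpt1 known from neurons, was at -0.63 (SE 0.21, adjusted p = 0.0219, edgeR). Its call was lost without control replicate 1 (-0.48, adjusted p = 0.134), without Rnf40ΔSC replicate 1 (-0.57, adjusted p = 0.0871) and with DESeq2 (-0.63, adjusted p = 0.0926). It was also lost under total-count scaling (-0.36, adjusted p = 0.185, edgeR) and with the muscle term (-0.58, adjusted p = 0.149, edgeR). Without both Rnf40ΔSC replicates 1 and 2 the log2 fold change of Cpt1c was -0.66. Its adjusted p ranged from 0.0215 to 0.485 over all settings of edgeR and DESeq2. Slc25a20, the carrier that moves acylcarnitines across the inner membrane, had 22, 23 and 34 reads in control and 68, 19 and 53 reads in Rnf40ΔSC libraries. Its Rnf40ΔSC replicates 1 and 3 were high and replicate 2 was low, and its log2 fold change of 0.51 (SE 0.26, adjusted p = 0.139, edgeR) passed only without Rnf40ΔSC replicate 2 (0.75, adjusted p = 0.0205) and under total-count scaling (0.77, adjusted p = 0.0171), with a highest adjusted p of 0.693. Cpt1b, the muscle form of the entry enzyme, had 1, 2 and 3 reads in control and 0, 0 and 2 reads in Rnf40ΔSC libraries and was too low to test.

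Acadm (chr3:153585321-153607596, minus strand), the medium-chain dehydrogenase, had 73, 124 and 175 reads in control and 103, 80 and 123 reads in Rnf40ΔSC libraries. Its levels were 60.1, 70.1 and 78.1 CPM in control and 44.2, 49.9996 and 50.9 CPM in Rnf40ΔSC libraries. The genotypes did not overlap, but the lowest control library was closer to the Rnf40ΔSC libraries than to the highest control. The mean fell from 69.4 ± 9.02 to 48.4 ± 3.62 CPM (SD, n = 3 each). The fitted level was 1.45-fold lower, a log2 fold change of -0.54 (SE 0.14, adjusted p = 0.00309, edgeR). The call was lost without control replicate 3 (-0.44, adjusted p = 0.0554) and with the muscle term (-0.48, adjusted p = 0.0549). It was also lost under total-count scaling (-0.27, adjusted p = 0.132, edgeR), in a range from 0.00208 to 0.590 over all settings of edgeR and DESeq2. Without both Rnf40ΔSC libraries low in muscle, which leaves 1 Rnf40ΔSC library, the log2 fold change of Acadm was -0.47. Of the 50-base stretches of its transcript, 13.1% have an identical copy elsewhere in mm9.

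Acadl (chr1:66877413-66909851, minus strand), the long-chain dehydrogenase, had 93.9, 98.9 and 108 CPM in control and 71.7, 76.2 and 100.1 CPM in Rnf40ΔSC libraries. Rnf40ΔSC replicates 1 and 2 lay below all controls, whereas Rnf40ΔSC replicate 3 lay among them. These are also the libraries with little and with much muscle RNA. The log2 fold change was -0.28 (SE 0.12, adjusted p = 0.0854, edgeR). It was -0.45 without Rnf40ΔSC replicate 3 (adjusted p = 0.00516, edgeR) and -0.03 with the muscle term (adjusted p = 0.918, edgeR). Total-count scaling brought it to -0.0076 (adjusted p = 0.969, edgeR), and it was -0.01 without Rnf40ΔSC replicates 1 and 2. The bounds of its adjusted p in edgeR and DESeq2 were 0.00516 and 0.969.

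Acadvl (chr11:69823685-69828913, minus strand), the very-long-chain dehydrogenase, had 37.9, 30.5 and 48.2 CPM in control and 35.6, 28.7 and 45.9 CPM in Rnf40ΔSC libraries. Its spread within each genotype exceeded the difference between them, and the log2 fold change of -0.08 (SE 0.19, adjusted p = 0.797, edgeR) changed sign in 6 settings, total-count scaling among them. In the mm9 annotation 976 of the 2168 bases of its longest transcript lie on exons of Dvl2, which is read from the opposite strand. Whether the reads were counted by strand is not given in the sources used here, so that Acadvl and Dvl2 reads may be mixed or dropped.

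**Figure D2:**
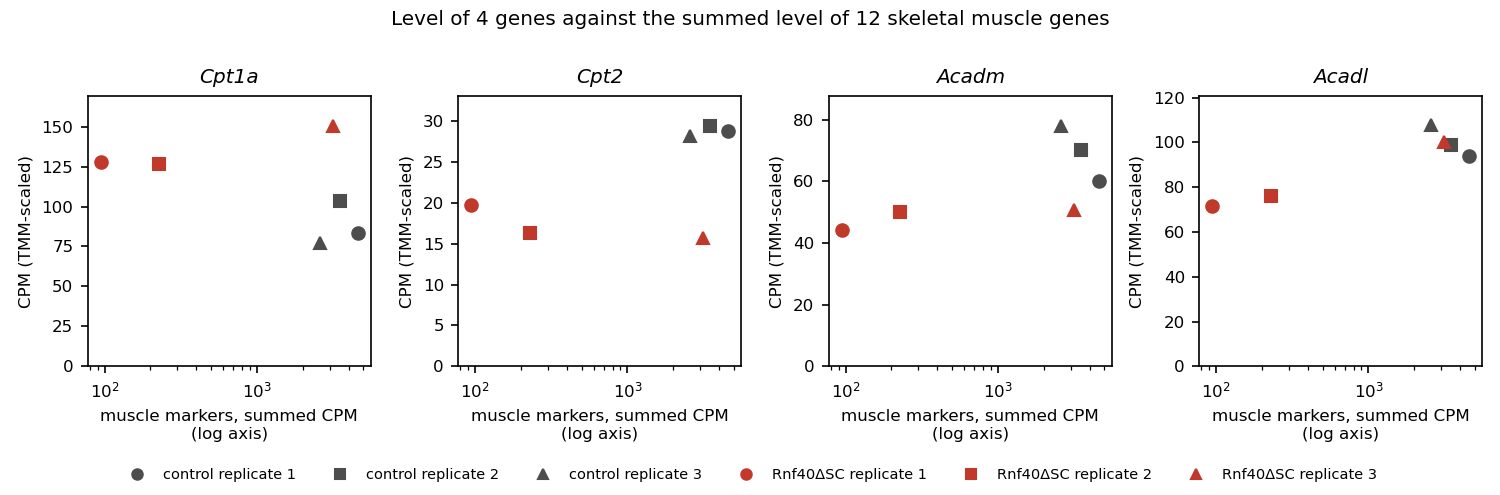
Each panel plots the CPM of 1 gene after TMM scaling (vertical axis) against the summed CPM of 12 skeletal muscle genes (horizontal log axis) in the 3 control (grey) and 3 Rnf40ΔSC libraries (red). Rnf40ΔSC replicate 3 lies beside the controls on the muscle axis, where it is above them for Cpt1a, below them for Cpt2 and Acadm and among them for Acadl.

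Hadha (chr5:30444841-30481702, minus strand), the alpha subunit of the trifunctional protein, had 129, 161 and 158 CPM in control and 168, 142 and 191 CPM in Rnf40ΔSC libraries. The genotypes overlapped through Rnf40ΔSC replicate 2, and the log2 fold change was 0.16 (SE 0.11, adjusted p = 0.295, edgeR). It passed under total-count scaling (0.43, adjusted p = 0.00227, edgeR), with a highest adjusted p of 0.914 in edgeR and DESeq2. Without Rnf40ΔSC replicates 1 and 2, which leaves 1 Rnf40ΔSC library, the log2 fold change of Hadha was 0.34. The ratio of Hadha to Acadm reads, formed after the values were seen, was 2.15, 2.30 and 2.03 in control and 3.81, 2.84 and 3.76 in Rnf40ΔSC libraries, without overlap. The corresponding ratio of Acadm to Acadl overlapped, with 0.640, 0.709 and 0.723 in control and 0.617, 0.656 and 0.508 in Rnf40ΔSC libraries.

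Hadhb (chr5:30481788-30511133, plus strand), the beta subunit, had 11, 9 and 9 reads in control and 12, 18 and 12 reads in Rnf40ΔSC libraries. Rnf40ΔSC replicate 2 was the highest and the other libraries overlapped, and the log2 fold change of 0.25 (SE 0.42, adjusted p = 0.687, edgeR) changed sign without that library (-0.16) and without control replicate 3 (-0.01). Hadha and Hadhb start 85 bases apart on opposite strands in the mm9 annotation and 272 bases apart in RefSeq GRCm38.p6, and their products form 1 complex, yet Hadha had 12.6 to 39.4 times as many reads. The Hadhb transcript is nearly duplicated in the genome. Its best copy, at chr2:108788953-108790885 of mm9 where the annotation has the pseudogene Gm13910, is 99.7% identical over 1933 bases with 5 mismatched bases and 0 gaps. Of the 1997 stretches of 50 bases in the transcript, 82.7% occur identically elsewhere, and the authors counted only uniquely mapped reads. A coding stretch of 51 bases around 1 of the mismatches shows how little separates the gene from its copy, with the differing base in capitals. It covers bases 295 to 345 of the transcript and chr2:108789138-108789188 of the plus strand, and the change is G26A, counted from 1 at the 5′ end of the stretch with the base of Hadhb first.
Hadhb: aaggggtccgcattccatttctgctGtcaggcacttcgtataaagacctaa
copy: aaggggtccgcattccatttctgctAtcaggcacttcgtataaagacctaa
The RNA level of Hadhb can therefore not be read from its count. For the other 6 genes, Cpt1a, Cpt2, Acadl, Acadvl, Hadha and Ppara, 0% of the 50-base stretches had an identical copy elsewhere.

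Per length of the longest transcript, which allows levels of different genes to be set side by side, the control order was Acadl (52.3 ± 3.74 CPM per kb), Hadha (37.2 ± 4.39), Acadm (33.9 ± 4.41), Cpt1a (20.4 ± 3.19), Acadvl (17.9 ± 4.10), Cpt2 (12.1 ± 0.266) and Ppara (3.94 ± 0.641). Hadhb is left out of this order because its count does not give its level, and the place of Acadvl is uncertain because of the exons it shares with Dvl2. The place of Acadm is uncertain too, since 13.1% of its 50-base stretches have an identical copy elsewhere and only uniquely mapped reads were counted. Hadha and Acadm, and Cpt1a and Acadvl, were neighbours whose SDs (n = 3) overlapped. In Rnf40ΔSC nerves Acadl (43.2 ± 7.97 CPM per kb) and Hadha (41.6 ± 6.14) were closest, and Cpt1a (31.4 ± 3.06) stood above Acadm (23.6 ± 1.77). By this length the means of Cpt1a and Acadm exchanged places between the genotypes. All exons of Acadm together cover 2932 bases, against 2047 in its longest transcript, whereas both lengths are 4300 for Cpt1a. The distance between the 2 genes therefore depends on the length used, and which transcripts were present was not tested.

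**Figure D3:**
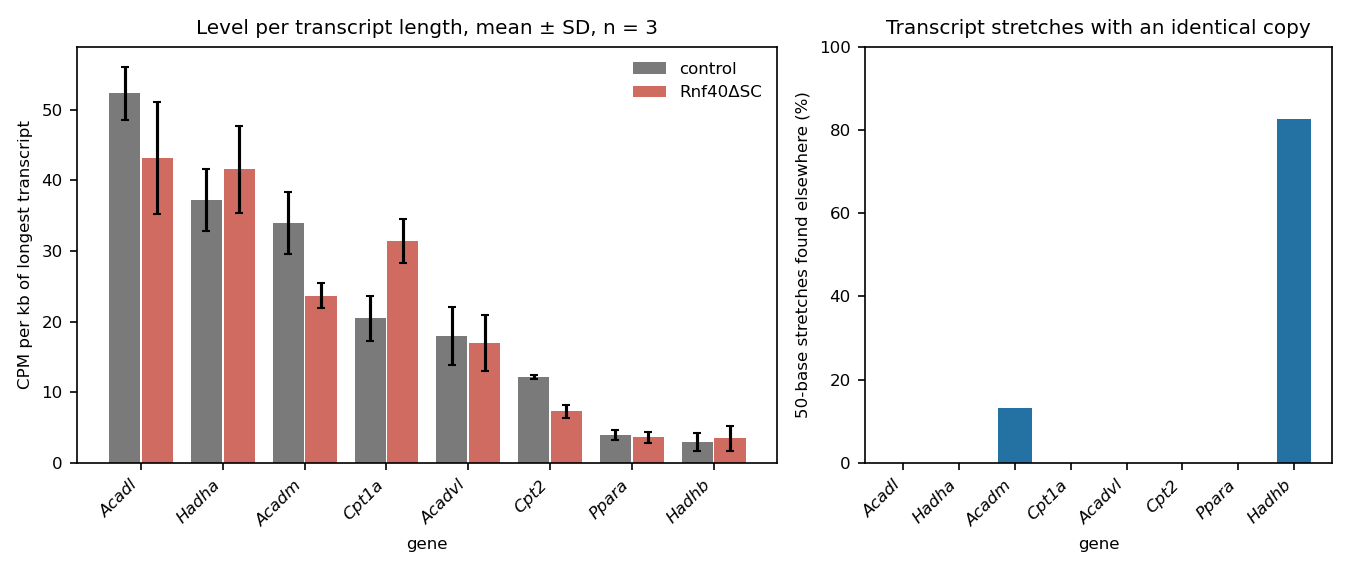
The left panel plots CPM per kb of the longest transcript for each gene (bars, mean ± SD of 3 libraries) in control (grey) and Rnf40ΔSC nerves (red), where the bars of Hadhb hold uniquely placed reads only and do not give its level. The right panel plots the percentage of 50-base stretches of that transcript with an identical copy elsewhere in the genome, which is 82.7% for Hadhb, 13.1% for Acadm and 0% for the others.

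Ppara (chr15:85565413-85633249, plus strand), the receptor that activates oxidation genes, had 14, 28 and 29 reads in control and 34, 15 and 31 reads in Rnf40ΔSC libraries. Its levels of 11.5, 15.8 and 12.9 CPM in control overlapped with 14.6, 9.37 and 12.8 CPM in Rnf40ΔSC libraries. The log2 fold change was -0.12 (SE 0.28, adjusted p = 0.785, edgeR) and turned positive under total-count scaling (0.15), without control replicate 2 (0.01) and without Rnf40ΔSC replicate 2 (0.02). With the low counts of Ppara, changes larger than its SE could also remain without a call.

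Among 17 tested regulators of oxidation other than Ppara, 2 fell (11.8%, beside 16.2% of all genes tested) and 2 rose (11.8%, beside 15.4%), with a median log2 fold change of -0.03. Rxrg, a partner of nuclear receptors, had 18, 23 and 34 reads in control and 4, 1 and 5 reads in Rnf40ΔSC libraries, and its log2 fold change was -3.14 (SE 0.42, adjusted p = 2.47e-07, edgeR). Pparg, the receptor of adipocytes, was at -1.39 (SE 0.30, adjusted p = 0.000473, edgeR) and at -0.04 with the fat term (adjusted p = 0.985, the highest of a range from 5.99e-05 in edgeR and DESeq2). Ppargc1a, a coactivator of genes for mitochondria and oxidation, rose from 16.2 to 28.8 CPM in the mean, with a log2 fold change of 0.83 (SE 0.21, adjusted p = 0.00238, edgeR). The corepressor gene Ncor1 was at 0.38 (SE 0.09, adjusted p = 0.00159, edgeR). With the fat term the calls of Ppargc1a and Ncor1 were lost (1.25 and 0.32, the highest adjusted p of their ranges in edgeR and DESeq2 being 0.170 and 0.488). Acacb, which makes malonyl-CoA at the mitochondrial surface, and Mlycd, which degrades it, had log2 fold changes of -0.25 (SE 0.24) and 0.35 (SE 0.27) and did not pass.

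Of the 9 tested PPAR target genes outside the 8, 1 fell (11.1%, beside 16.2% of all genes tested) and 1 rose (11.1%, beside 15.4%). Ucp2, a carrier of the inner membrane, fell, with a log2 fold change of -0.73 (SE 0.12, adjusted p = 4.99e-05, edgeR). Angptl4 was at 0.04 (SE 0.18). Pdk4, which restrains glucose oxidation, had 36, 59 and 107 reads in control and 33, 29 and 125 reads in Rnf40ΔSC libraries, with the highest count in Rnf40ΔSC replicate 3, the library of that genotype with much muscle RNA. Its log2 fold change of -0.39 (SE 0.60, adjusted p = 0.689, edgeR) became -1.25 without that library (adjusted p = 2.60e-05, the lowest of a range up to 0.972 in edgeR and DESeq2).

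The lists of other mitochondrial and of peroxisomal oxidation genes held calls near the shares of all genes tested (16.2% lower, 15.4% higher). Of 20 tested mitochondrial genes outside the 8, 3 fell (15.0%) and 3 rose (15.0%), with a median log2 fold change of -0.08. Of 16 tested peroxisomal genes 3 fell (18.75%) and 2 rose (12.5%), with a median of -0.18. Together with the carnitine list, 13 of 40 genes passed, and 5 of the 13 passed whichever library was left out. These 5 were Crat and Acadsb, the dehydrogenase of short branched chains (-0.40, SE 0.11), and the peroxisomal transporter gene Abcd2 (-0.71, SE 0.19), which fell, and Pccb, a subunit of propionyl-CoA carboxylase (0.72, SE 0.12), and the transporter gene Abcd3 (0.36, SE 0.10), which rose. Their adjusted p in edgeR was at most 0.00687. Under total-count scaling Acadsb (-0.13, adjusted p = 0.330) and Abcd2 (-0.44, adjusted p = 0.0624) lost their calls in edgeR, within ranges of 0.00236 to 0.347 and 0.00349 to 0.559. With the muscle term Abcd2 (-0.65, adjusted p = 0.0615) and Abcd3 (0.21, adjusted p = 0.286) lost theirs in edgeR, and the range of Abcd3 was 7.98e-06 to 0.596. Without Rnf40ΔSC replicates 1 and 2 Abcd2 was at -0.64 and Abcd3 at 0.21. With the fat term 0 of the 13 calls remained in edgeR.

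The other 8 calls each depended on at least 1 library. Acaa2, the thiolase of the mitochondrial pathway, was at -0.60 (SE 0.16) and lost its call without Rnf40ΔSC replicate 1 (-0.43, adjusted p = 0.0550, edgeR). Without Rnf40ΔSC replicates 1 and 2 Acaa2 was at -0.37. Its call was also lost with the muscle term (-0.36, adjusted p = 0.201, edgeR) and under total-count scaling (-0.33, adjusted p = 0.0993, edgeR), in a range from 0.000398 to 0.345 in edgeR and DESeq2. Hadh, the dehydrogenase of medium and short hydroxyacyl chains, was at -0.38 (SE 0.11) and lost it without control replicate 3 (adjusted p = 0.153, edgeR), under total-count scaling (-0.11, adjusted p = 0.464, edgeR) and with DESeq2 (0.0512), in a range from 0.00255 to 0.827. Without the same library Decr2 (0.78, SE 0.21) and Acot2 (0.79, SE 0.23) lost theirs (adjusted p = 0.0645 and 0.102, edgeR). Acot2 also lost its call without Rnf40ΔSC replicate 2 (adjusted p = 0.0562, edgeR) and with the muscle term (0.49, adjusted p = 0.272, edgeR). Without both Rnf40ΔSC replicates 1 and 2 Acot2 was at 0.41. The adjusted p of Acot2 ranged from 0.000409 to 0.942 and that of Decr2 from 0.000178 to 0.499 in edgeR and DESeq2. The calls of Eci2 (0.34, SE 0.13) and Pex5 (-0.51, SE 0.19) were lost without 5 and 4 of the 6 libraries and with DESeq2, that of Eci2 also with the muscle term (0.22) and that of Pex5 also under total-count scaling (-0.25). Without Rnf40ΔSC replicates 1 and 2 together the log2 fold change was 0.19 for Eci2 and -0.66 for Pex5. Acads, Echs1, Etfdh, Decr1 and Eci1 of the mitochondrial list had log2 fold changes of -0.35, -0.33, -0.03, -0.07 and -0.23 and did not pass, although Echs1 did without control replicate 2 (-0.48, adjusted p = 0.0397, edgeR). Ehhadh, Hsd17b4 and Acaa1a of the peroxisomal list were at -0.19, -0.17 and -0.09 and did not pass either. The search for copies was made only for the 8 genes, so that paralogues such as Acaa1a and Acaa1b, or Acot2 and Acot1, may have shared reads.

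**Figure D4:**
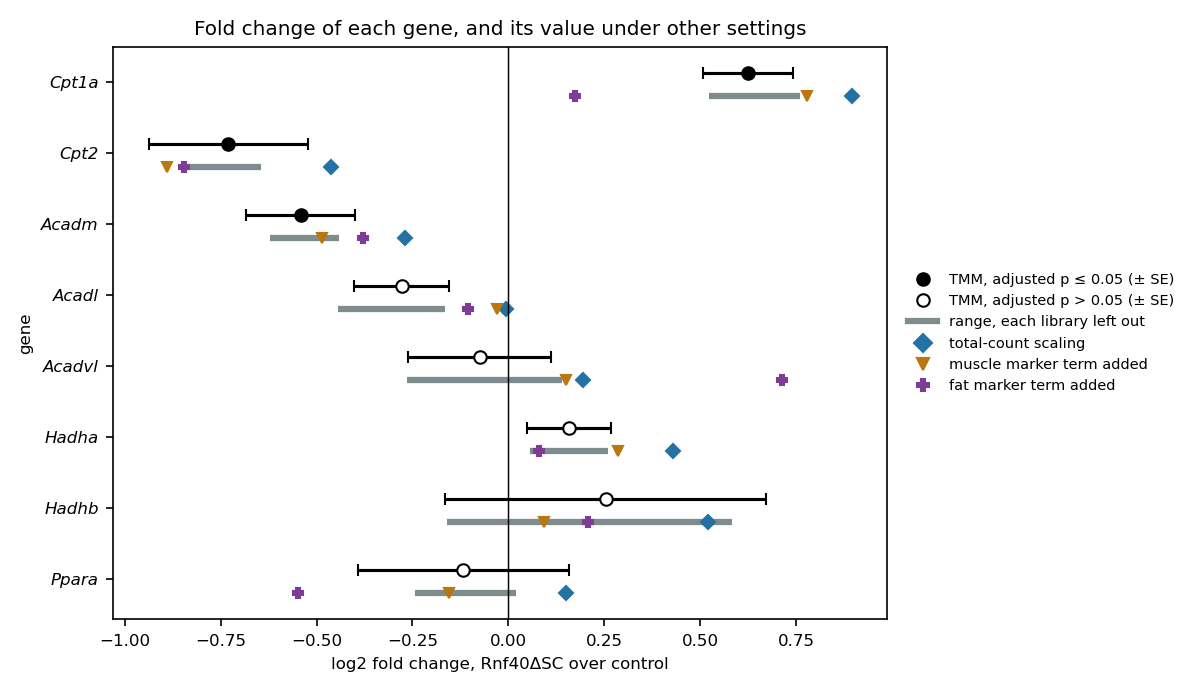
For each gene the black point gives the log2 fold change of Rnf40ΔSC over control with its SE (filled where the adjusted p was at most 0.05), the grey bar the range with each library left out, and the coloured symbols the value under total-count scaling or with a marker term added. Cpt1a stays positive and Cpt2 and Acadm stay negative in all of these, whereas Acadvl, Hadhb and Ppara lie on both sides of 0.

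Of 19 tested genes of mitochondrial content, 7 rose (36.8%, beside 15.4% of all genes tested) and 1 fell (5.26%, beside 16.2%), 11 did not pass, and the median log2 fold change was 0.32. The number that rose ranged from 2 to 13 over the settings, and whether the list differs from the oxidation genes was not tested. Tomm20, of the protein import machinery, was at 0.86 (SE 0.12, adjusted p = 7.49e-07, edgeR), Tfam, the transcription factor of mitochondrial DNA, at 0.88 (SE 0.19, adjusted p = 0.000394, edgeR) and Vdac1 at 0.51 (SE 0.10, adjusted p = 0.000211, edgeR). With the fat term Tfam (1.21, adjusted p = 0.142) and Vdac1 (0.30, adjusted p = 0.568) lost their calls in edgeR, at the upper ends of ranges that began at 8.65e-06 and 3.23e-07. Mdh2 (0.44) and Vdac2 (0.36) rose too. Both lost their calls in edgeR with the muscle term, at 0.23 (adjusted p = 0.270) and 0.10 (adjusted p = 0.618). Cs, citrate synthase, was at -0.28 (SE 0.10, adjusted p = 0.0249, edgeR), a call lost without any 1 of 4 libraries (control replicates 1 and 3 and Rnf40ΔSC replicates 1 and 2) and with DESeq2. It was -0.01 under total-count scaling (adjusted p = 0.932) and -0.20 with the muscle term (adjusted p = 0.289) in edgeR, in a range from 0.00997 to 0.932 in edgeR and DESeq2. Of 7 ketone body genes 1 rose (14.3%, beside 15.4% of all genes tested), Bdh1 (0.45, SE 0.17, adjusted p = 0.0351, edgeR). Bdh1 lost its call without any 1 of 4 libraries (control replicates 2 and 3 and Rnf40ΔSC replicates 1 and 2) and with DESeq2 (0.45). It also lost it with the muscle term (0.46) and with the fat term (0.70). Without both Rnf40ΔSC replicates 1 and 2 it was at 0.44. Its adjusted p ranged from 0.000795 to 0.370 in edgeR and DESeq2.

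Of the 13 genes of fatty acid synthesis, the opposite pathway, 11 fell (84.6%, beside 16.2% of all genes tested), and the median log2 fold change was -1.62. Acaca, whose product malonyl-CoA inhibits Cpt1 enzymes, had 109, 116 and 164 reads in control and 65, 54 and 64 reads in Rnf40ΔSC libraries, and its log2 fold change was -1.37 (SE 0.16, adjusted p = 9.26e-09, edgeR). With the fat term it was -1.12 and lost its call (adjusted p = 0.0505, edgeR, the highest of a range from 8.70e-16). Fasn was at -2.09 (SE 0.09, adjusted p = 6.71e-20, edgeR). Within each library the ratio of Cpt1a to Acaca reads was 0.927, 1.58 and 1.05 in control and 4.58, 3.76 and 5.67 in Rnf40ΔSC libraries, 3.94-fold higher in the mean and without overlap. This ratio, too, was formed after the values were seen and was not tested.

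**Figure D5:**
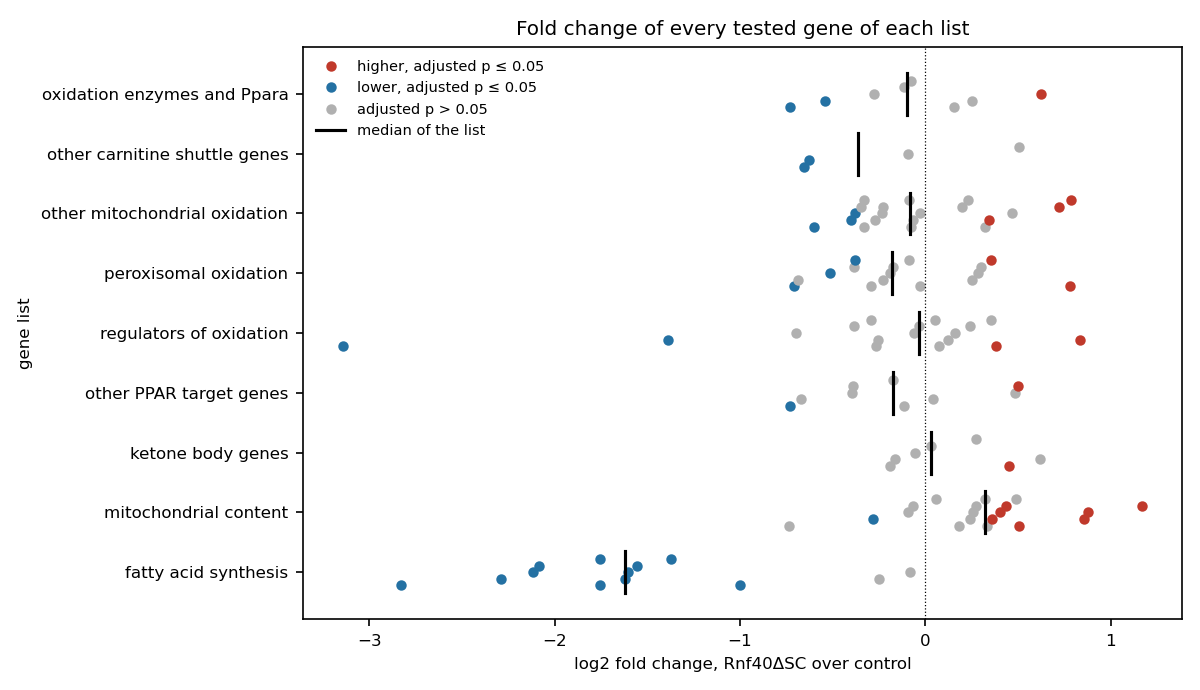
Each point is the log2 fold change of 1 tested gene of a list (red higher and blue lower at an adjusted p of at most 0.05, grey not passed), and the black line is the median of the list. The mitochondrial and peroxisomal oxidation lists have points of both colours and medians of -0.08 and -0.18, the other carnitine shuttle genes have blue and grey points and a median of -0.36, and fatty acid synthesis has its median at -1.62 and mitochondrial content at 0.32.

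The genes whose pattern over the 6 libraries was most like that of Cpt1a were sought outside the lists, among 9170 genes above the base mean limit, by the root-mean-square difference of centred log2 CPM. The nearest were Ddx55 (0.0666), Pcp4l1 (0.0671) and Frzb (0.0711). Frzb had 95.5, 107 and 88.8 CPM in control and 150, 141 and 155 CPM in Rnf40ΔSC libraries, a pattern with the second control library highest and the third Rnf40ΔSC library highest as in Cpt1a.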

How the data were processed

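Gene counts of 6 RNA-Seq libraries of P14 sciatic nerve, 3 control and 3 Rnf40ΔSC, were grouped by the genotype labels. The raw count of each gene is the value deposited by the authors. Their methods name TopHat for alignment to mm9, HTSeq for uniquely mapped reads and DESeq2 for the comparison. The submitters' processing notes name Bowtie2 2.1.0 and both mm9 and mm10, and the labels name the NEB Next Ultra kit where the methods name a directional NEXTFLEX kit. The annotation and strand setting of the counts are not given in the sources used here. Positions, lengths and overlaps are from GENCODE vM1 on mm9.

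Genes kept by filterByExpr were tested with edgeR 4.0.16 (R 4.3.3, limma 3.58.1) on TMM-scaled counts, by the robust quasi-likelihood method with genotype alone in the model. Calls needed a Benjamini-Hochberg adjusted p no higher than 0.05 among 11371 genes. The script was tested on simulated counts. Alternatives were scaling by RLE, upper quartile or total counts, DESeq2 1.42.0 (fold-change prior on or off), no filter, a minimum of 10 counts per library, a replicate block, the loss of single libraries, and the limits of the study. Terms for muscle or fat marker level, and leaving out Rnf40ΔSC replicates 1 and 2, were added after seeing the data. Leaving out both of these replicates leaves 1 Rnf40ΔSC library, without spread in that group. Only the log2 fold changes of that fit are therefore given. Principal components used log2 CPM (prior count 2) of 500 genes. Copies were sought in mm9 with BLAST 2.17.0 and as identical 50-base stretches.

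The members and lists were chosen with earlier results of these data known. Named are the 8 genes, Rnf40 and Rnf20, genes with a fixed role in each list, up to 6 called genes per list by smallest p, and the 3 genes most like the member with the smallest p. Some genes under this rule are counted in their lists but not reported here by name. Rnf20, the partner of Rnf40, had a log2 fold change of 0.44 (SE 0.13, adjusted p = 0.00998, edgeR). Its call was lost without control replicate 3 (adjusted p = 0.0870, edgeR) or Rnf40ΔSC replicate 1 (adjusted p = 0.0570, edgeR) and with the muscle term (0.21, adjusted p = 0.423, edgeR). Its adjusted p ranged from 5.82e-05 to 0.784 over all settings of edgeR and DESeq2. Without Rnf40ΔSC replicates 1 and 2 the log2 fold change of Rnf20 was 0.18. Replicates differed beyond sampling noise (chi-square per degree of freedom 1.78 to 5.21).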

Additional observations from a re-analysis of the deposited data

How the results depend on the processing

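Cpt1a kept its direction in every setting, with 0.52 to 0.76 without single libraries, and lost its call with the fat term (0.17). Cpt2 kept its direction in every setting, with -0.84 to -0.64 without single libraries, and lost its call at -0.46 (total-count scaling) and -0.84 (fat term). Acadm ran from -0.62 to -0.44 without single libraries and lost its call at -0.27 (total-count scaling), -0.48 (muscle term) and -0.38 (fat term). It was at -0.47 without Rnf40ΔSC replicates 1 and 2. Acadl ran from -0.45 to -0.17 without single libraries. It was at -0.0076 (total-count scaling), -0.03 (muscle term), -0.11 (fat term) and -0.01 (without Rnf40ΔSC replicates 1 and 2). Hadha gained a call at 0.43 (total-count scaling) and was at 0.34 without Rnf40ΔSC replicates 1 and 2. The directions of Acadvl, Hadhb and Ppara depended on the setting. Acadvl reversed to 0.19 (total-count scaling), 0.15 (muscle term), 0.71 (fat term) and 0.22 (without Rnf40ΔSC replicates 1 and 2), with -0.26 to 0.14 without single libraries. Hadhb reversed to -0.18 without Rnf40ΔSC replicates 1 and 2, with -0.16 to 0.58 without single libraries. Ppara reversed to 0.15 under total-count scaling, with -0.24 to 0.0206 without single libraries.

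The number of all genes called lower, 1841 of 11371 tested, became 880 under total-count scaling, 449 with the fat term, 574 under the limits of the study and 1252 with the muscle term. It was 1439 to 1992 without single libraries. DESeq2 called 1287 lower and 1172 higher of 11366 genes without its prior, and 1289 lower and 1180 higher with it. The number called higher, 1756, became 3766, 181 and 424 in the same settings, 1120 with the muscle term and 1119 without Rnf40ΔSC replicates 1 and 2, and 1293 to 1915 without single libraries. Of the 8 genes, 0 were lower under total-count scaling, 1 with the muscle term, 0 with the fat term and 0 under the limits of the study, and 1 to 3 without single libraries. Higher were 2 under total-count scaling, where 3766 of all 11371 genes tested were higher. Higher were also 0 with the fat term, 0 under the limits, and 1 whichever single library was left out.

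Of the other 40 oxidation genes, 8 were lower, and 1 under total-count scaling, where 880 of all 11371 genes tested were lower. Lower were 5 with DESeq2 without and 5 with its prior, 5 with the muscle term, 0 with the fat term, 0 under the limits, and 6 to 9 without single libraries. Higher were 5, and 11 under total-count scaling, where 3766 of all 11371 genes tested were higher. With the muscle term 2 were higher, 0 with the fat term, 0 under the limits, and 2 to 5 without single libraries.

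Directions also reversed for genes that had not passed. Under total-count scaling the values were 0.24 (Etfdh), 0.20 (Decr1), 0.0383 (Eci1), 0.0788 (Ehhadh), 0.0950 (Hsd17b4), 0.18 (Acaa1a), 0.21 (Ppard) and 0.0173 (Acacb), and under upper-quartile scaling 0.00730 (Etfdh). With the muscle term they were 0.0675 (Etfdh), 0.0886 (Decr1), 0.0114 (Eci1), 0.39 (Acaa1a), 0.0519 (Acacb) and 0.39 (Pdk4). With the fat term they were 0.40 (Echs1), 0.63 (Etfdh), 0.33 (Eci1), 0.11 (Hsd17b4), 0.63 (Acaa1a), 0.63 (Acacb) and 0.35 (Pdk4), and 0.14 for Hadh, which had passed. Without Rnf40ΔSC replicates 1 and 2 they were 0.11 (Etfdh), 0.13 (Decr1), 0.0381 (Eci1), 0.42 (Acaa1a), 0.0859 (Acacb) and 0.44 (Pdk4). Without single libraries the ranges were -0.15 to 0.19 (Etfdh), -0.17 to 0.0495 (Decr1), -0.43 to 0.0104 (Ehhadh), -0.49 to 0.19 (Acaa1a), -0.20 to 0.0421 (Ppard), -0.49 to 0.00771 (Acacb) and -0.0514 to 0.15 (Angptl4).

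With a replicate block, 1837 genes were lower and 1727 higher, and Cpt1a was at 0.63 and Acadm at -0.52. The replicate numbers do not pair libraries in the labels, so the block was run here only. Fat level and genotype cannot be told apart, and what the fat term removes was not tested. Library totals of 1317167 to 2468765 limit what can be said of Ppara, whose largest count was 34. The marker terms and the loss of Rnf40ΔSC replicates 1 and 2 were chosen after seeing the data, and the cause of the differences was not tested.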
